A study of Mus musculus with 24 samples.

Results

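The comparison set 3 arrays of mutant mice at the stage labelled Lac10 against 3 arrays of mutant virgins, 6 of the 24 arrays of the series, and covered the whole span from the resting to the lactating state in the mutant genotype. The members were chosen by their labels alone: mutant genotype and stage Lac10 or virgin. All samples of the series share a mixed background, given as 80% FVB, 10% 129SVEV and 10% Black Swiss, and differ by genotype (wild type or mutant) and stage (virgin, dp12, dp18 or Lac10). The series title names BRCA1, but the labels give neither the mutant allele nor a Cre driver, and they do not name the tissue. Mutant Lac10 replicates 1 and 2 are labelled with body weights of 30 and 37 g, replicate 3 with slightly more than the heaviest virgin, and the 3 mutant virgins with 24, 25 and 22 g. The series' design text counts the stages in months, the labels count them as stages of pregnancy. The treatment field describes mRNA pulled down from nematode cell types, while the extraction field describes total RNA, so how the RNA of these arrays was isolated is not settled. The labels call the arrays of a group separate mice by weight but do not say how they were bred or dissected. The p-values measure the spread within groups, pooled over all 24 arrays of the 8 groups, which may be technical. They do not measure the spread of these 6 arrays alone, from which 9 genes passed instead of 438.

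The mammary gland of a virgin mouse is a sparse tree of ducts in a fat pad. Its epithelium has a basal, contractile layer and a luminal layer, and part of the luminal cells carry the receptors for oestrogen and progesterone. During pregnancy, prolactin acting through the transcription factor Stat5 drives the growth of alveoli, and in lactation their cells secrete caseins, whey proteins, lactose and fat while the myoepithelial cells expel the milk.

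Values are RMA log2 signals, on which a difference of 1 is a doubling, and 15234 genes were tested. The table used here carries no detection calls and several of the genes below have signals under the array median in 1 group. Differences are therefore given in log2 units and not as folds. Before the results, 1 array has to be set apart. Lac10 replicate 2 had a median correlation of 0.799 with the other 23 arrays, against 0.93 and 0.945 for Lac10 replicates 1 and 3 and 0.953 to 0.964 for the 3 virgins. Its 20 housekeeping genes had a median signal of 8.34, against 8.94 to 9.30 on the other 5 arrays of the comparison, and its signals had the narrowest spread of the 6 (SD 1.65). The labels used here state no reason for this. Its title carries the word golden, where those of Lac10 replicates 1 and 3 carry white and those of the mutant virgins neither. What these words refer to is not stated, and their part in its values was not tested. The part of RNA quality or of the tissue sampled in its values was not tested. The 3 virgin arrays correlated at 0.971 to 0.978 with each other and the 3 Lac10 arrays at 0.82 to 0.913. Lac10 replicate 3 stood apart by another measure as well. In the fit with array weights, Lac10 replicates 1, 2 and 3 had weights of 1.54, 0.12 and 0.21, and the virgins 0.72, 1.61 and 1.10. Brca1 itself had signals of 5.50, 4.85 and 4.33 in the virgins and 5.44, 5.18 and 4.55 at Lac10 (difference 0.16, SE 0.31, adjusted p = 0.755), and whether its probe set lies inside the changed part of the gene is not known here.

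The 8 measured basal and myoepithelial markers were above the array median on all 6 arrays. All 10 luminal epithelial markers were above it on the virgins and Lac10 replicate 1, and 9 on Lac10 replicates 2 and 3. Of the 5 hormone-sensing markers 4 were above it on Lac10 replicate 1, and 2 on each of replicates 2 and 3. The 3 Lac10 arrays did not share 1 cell type profile. The 10 luminal epithelial markers averaged 9.51, 9.56 and 9.74 in the virgins and 9.67, 6.63 and 7.85 at Lac10, so that replicate 1 was at the virgin level and replicates 2 and 3 were below all virgins. The 6 endothelial markers ran the other way, at 8.38, 8.48 and 8.70 in the virgins and 7.87, 9.86 and 10.12 at Lac10. White adipocyte markers averaged 6.61 to 7.01 in the virgins and 6.64, 7.89 and 9.22 at Lac10. The mean of the 7 secretory alveolar markers was higher on each Lac10 array (11.12, 11.47 and 12.18) than on any virgin array (9.21, 8.59 and 10.18). The mean of the 5 hormone-sensing markers was lower on each Lac10 array (6.41, 5.79 and 5.84 against 8.44, 8.19 and 7.80). Single members of these 2 sets did overlap between the groups, among them Btn1a1, Csn3, Lalba and Esr1. The means of the 6 measured T and B lymphocyte markers overlapped between the groups, with Cd3d below the array median on all 6 arrays, and of the 5 keratinocyte and hair follicle markers 4 were below the median on all 6. In tissue RNA, fewer cells of a type and less RNA per cell cannot be told apart, and the part of cell type in the differences below was not tested.

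**Figure D1:**
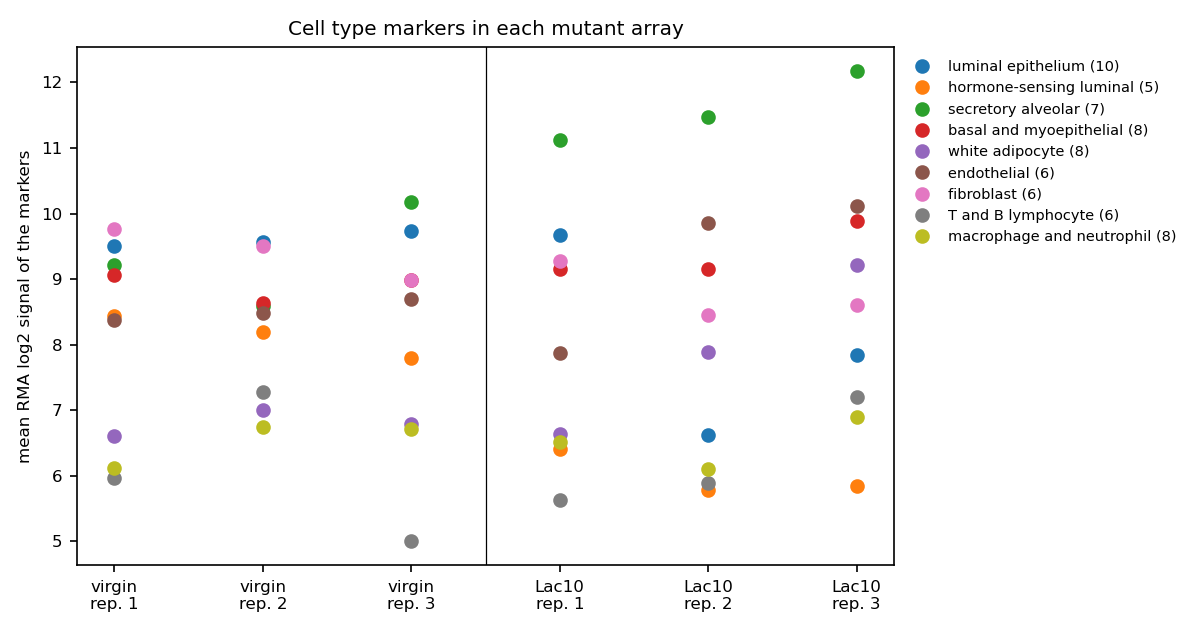
Mean RMA log2 signal of the markers of 9 cell types (number of markers in brackets) on each of the 6 mutant arrays, virgins left of the line and Lac10 right of it; each point is 1 array. The luminal epithelial mean is at 9.67 on Lac10 replicate 1 and at 6.63 and 7.85 on replicates 2 and 3, while the secretory alveolar mean is above all virgins on the 3 Lac10 arrays.

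Milk protein, milk lipid and transporter genes led the rises, and genes of hormone-sensing luminal cells, glutathione supply and the miR-23a cluster were among the largest falls. In mutants 438 genes (2.88% of those tested) passed an adjusted p of 0.05, of which 43 (0.282%) were higher and 395 (2.59%) lower at Lac10. At an unadjusted limma p under 0.05 were 3730 of the 15234 genes tested in mutants. The counts at that level given below for mutant lists with all arrays are to be read against this share. The 3 Lac10 and the 3 virgin arrays did not overlap for 424 of the 438, a property of 22.3% of all genes tested (4.02% higher, 18.3% lower). The median over all tested genes was −0.18, and after centring each array on its housekeeping genes it was 0.18 and 135 genes (0.886%) passed, 48 higher and 87 lower. Without Lac10 replicate 2, 69 genes passed (0.453%), 12 higher and 57 lower, and 65 of them were among the 438; without replicate 1, 1794 passed (11.8%) and 433 of the 438 were among them. Without Lac10 replicate 3, 668 passed (4.38%), and without virgin replicates 1, 2 and 3, 126 (0.827%), 64 (0.42%) and 138 (0.906%). A core of 47 genes passed with all arrays and without each of the 6 in turn. Any other gene described below as having passed between the mutant groups lost its call without at least 1 array. The 3 rises of the core were Csn1s2b, Wap and Olah, and its 44 falls included Cxcl15, Cyp3a57, Pgr, Foxa1, Prom1, Slc7a11, Gclc, Gpx3, Mir23a, Mir27a, Stc2 and Aqp5, picked for mention after their values were seen. All these fits borrow the spread of the other groups. Of the core genes named here, Csn1s2b, Wap, Cxcl15, Cyp3a57, Pgr, Mir23a and Stc2 passed from the 6 arrays alone. Not past the limma test there were Olah (adjusted p = 0.105), Foxa1 (0.0811), Prom1 (0.105), Slc7a11 (0.065), Gclc (0.185), Gpx3 (0.211), Mir27a (0.065) and Aqp5 (0.214).

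The caseins, the proteins that make up milk micelles, were higher at Lac10, with 3 of 5 past the test and none lower (median 1.36, against −0.18 for all genes). Csn1s2b, an alpha-S2 casein, had signals of 3.52, 3.60 and 3.88 in the virgins, close to the bottom of the scale, and of 8.19, 10.43 and 11.32 at Lac10. The groups were far apart, and the difference was 6.31 (SE 1.13, adjusted p = 0.00607; 6.09 and 0.0393 without Lac10 replicate 2). Csn1s2a was at 11.09, 8.99 and 12.00 in the virgins and at 12.49, 12.62 and 12.70 at Lac10 (1.91, SE 0.44, adjusted p = 0.0286, and an adjusted p of 0.13 without replicate 2). Csn1s1, the alpha-S1 casein, was at 11.64, 10.64 and 11.84 and then at 12.50, 12.83 and 12.66 (1.28, SE 0.29, adjusted p = 0.0256, 0.146 without replicate 2 and 0.0629 after housekeeping centring). Both genes were high in the virgins as well, and virgin replicate 2 was the lowest for each. Without that virgin 1 of the 5 caseins passed and their median was 0.92, with Csn1s2a at 1.05 (adjusted p = 0.0935) and Csn1s1 at 0.92 (adjusted p = 0.159). Csn2, beta casein, did not overlap either, at 12.22, 10.17 and 12.68 against 13.00, 13.09 and 13.06, and did not pass (1.36, SE 0.40, adjusted p = 0.065). For Csn3, kappa casein, the difference was 0.45 (adjusted p = 0.343) and the groups overlapped.

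**Figure D2:**
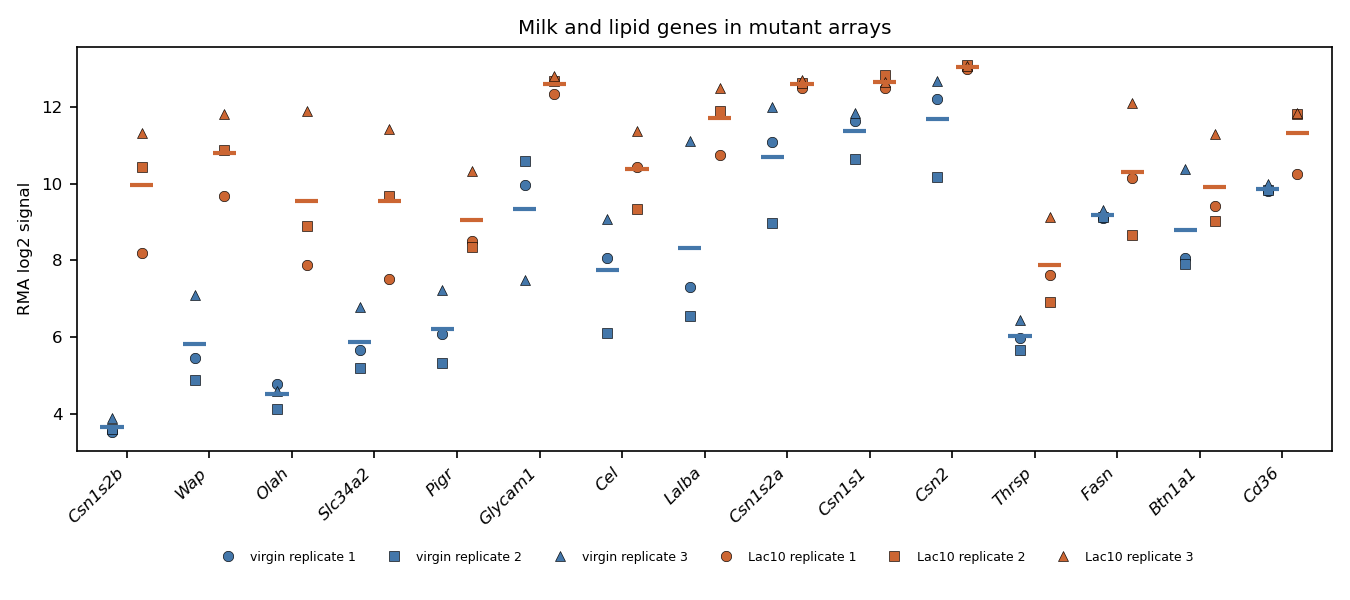
RMA log2 signal of 15 milk and lipid genes on the 3 virgin (blue) and 3 Lac10 (orange) mutant arrays; symbols mark replicates and bars group means. Csn1s2b, Wap and Olah lie between 3.52 and 7.11 in virgins and between 7.87 and 11.89 at Lac10, whereas Csn1s1, Csn1s2a and Csn2 are high in both groups.

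Stat5 binds the sequence TTCNNNGAA, which reads the same on both strands, and the RefSeq promoter table (GRCm38.p6) gives the upstream sequence of 10 of the 11 milk protein and milk lipid genes that rose. Searched over the 250 bases upstream of the start, 2 of these 10 held the motif, as did 3 of the 50 milk and lipid genes with a promoter that did not pass and 7.26% of the 11867 tested genes with a promoter. The 2 are shown with the motif in capitals because Stat5 is the gland's best known lactation factor, and a match of letters is a description, not a bound site. The sequences run 5′ to 3′ over the 200 bases before the start, at chr5:87666008-87666207 on the plus strand for Csn1s1 (motif TTCTTAGAA, 100 to 92 bases upstream) and at chr15:103565082-103565281 on the minus strand for Glycam1 (motif TTCCCAGAA, 145 to 137 bases upstream).
Csn1s1: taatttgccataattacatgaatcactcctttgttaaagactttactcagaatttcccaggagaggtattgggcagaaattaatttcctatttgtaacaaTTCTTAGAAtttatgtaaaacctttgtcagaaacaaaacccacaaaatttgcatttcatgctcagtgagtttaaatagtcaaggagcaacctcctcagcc
Glycam1: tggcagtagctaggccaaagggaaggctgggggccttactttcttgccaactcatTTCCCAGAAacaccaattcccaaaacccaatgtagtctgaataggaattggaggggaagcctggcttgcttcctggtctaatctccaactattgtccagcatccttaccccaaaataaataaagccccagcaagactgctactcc

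Among 25 whey and other secreted milk proteins 5 rose and none fell (median 0.24; wild type 12 and median 1.94). None of the 25 passed the test of the difference between the genotypes. In that test 7 were at an unadjusted limma p under 0.05, against 4688 of all 15234 genes. Wap, the whey acidic protein, was at 5.45, 4.88 and 7.11 in the virgins and at 9.69, 10.87 and 11.83 at Lac10 (4.98, SE 0.58, adjusted p = 9.54e-05; 0.000782 without Lac10 replicate 2). Glycam1, a mucin-like milk protein whose promoter is printed above, was at 9.98, 10.59 and 7.48 and then at 12.33, 12.67 and 12.81 (3.25, SE 0.87, adjusted p = 0.0481, 0.216 without replicate 2). Pigr, the receptor that carries immunoglobulin A across the epithelium into milk, rose from 6.09, 5.32 and 7.24 to 8.52, 8.35 and 10.33 (2.85, SE 0.56, adjusted p = 0.0119; 0.0191 without replicate 2, and 0.0935 without virgin replicate 2). The other 2 were Cel, the bile salt-stimulated milk lipase (2.64, adjusted p = 0.0473), and Lao1, an L-amino acid oxidase of milk (3.44, adjusted p = 0.0336), for which virgin replicate 3 at 8.78 lay above Lac10 replicate 1 at 8.72. Neither passed without Lac10 replicate 2 (adjusted p = 0.0773 and 0.142). Virgin replicate 3 also held the highest virgin signals of Wap, Pigr, Cel and Lalba. Lalba, alpha-lactalbumin, which turns a galactosyltransferase into lactose synthase, was at 7.31, 6.55 and 11.12 in the virgins and at 10.75, 11.91 and 12.51 at Lac10 (3.39, SE 1.03, adjusted p = 0.0686), and the groups overlapped through that virgin. Ltf, lactoferrin, differed by 0.68 (adjusted p = 0.397).

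In fatty acid synthesis, 2 of 25 genes rose and none fell (median 0.37), against 17 and a median of 2.07 in wild type. None of the 25 passed the test of the difference between the genotypes. In that test 15 were at an unadjusted limma p under 0.05, against 4688 of all 15234 genes. The sign of the mutant median rested on 1 array. It was −0.28 without Lac10 replicate 3 and 0.87 without replicate 2. Olah, the thioesterase that releases the medium-chain fatty acids typical of milk, was at 4.79, 4.13 and 4.60 in the virgins and at 7.87, 8.90 and 11.89 at Lac10 (5.04, SE 0.65, adjusted p = 0.000273; 0.000782 without Lac10 replicate 2). Thrsp, a promoter of lipogenesis, rose from 5.98, 5.66 and 6.44 to 7.61, 6.92 and 9.14 (1.86, SE 0.44, adjusted p = 0.0314; 0.06 without Lac10 replicate 3 and 0.157 without virgin replicate 2). Both genes were highest on Lac10 replicate 3. That array was also the highest for the main enzymes: Fasn, fatty acid synthase, was at 9.12, 9.13 and 9.31 in the virgins and at 10.16, 8.67 and 12.10 at Lac10 (1.12, adjusted p = 0.193; 1.94 and 0.0475 without replicate 2, 0.23 and 0.674 without replicate 3), and Acaca, acetyl-CoA carboxylase, at 7.28, 6.85 and 7.22 and then at 7.35, 7.37 and 10.18 (1.18, adjusted p = 0.165; 0.24 and 0.594 without replicate 3). Of 23 genes of the milk fat globule and triglyceride assembly 1 rose, Cd36, a fatty acid carrier, from 9.81, 9.83 and 9.99 to 10.25, 11.83 and 11.86 (1.44, SE 0.37, adjusted p = 0.0413, 0.274 without replicate 2). The list's median was 0.04 (0.49 without Lac10 replicate 2 and −0.53 without replicate 3), and it was 1.36 with 11 rises in wild type. None of the 23 passed the test of the difference between the genotypes, where 10 were at an unadjusted limma p under 0.05. Btn1a1, butyrophilin, which binds the fat globule's membrane, was at 8.07, 7.90 and 10.38 and then at 9.43, 9.02 and 11.30 (1.13, adjusted p = 0.22), Xdh differed by 0.79 (adjusted p = 0.199) and Plin2 by −0.59 (adjusted p = 0.325). None of 20 sterol genes passed and 5 were at an unadjusted limma p under 0.05, against 3730 of all 15234 genes tested. The median of the 20 was −0.11, and 0.26 after housekeeping centring, and in wild type 12 rose. None of the 20 passed the test of the difference between the genotypes, where 14 were at an unadjusted limma p under 0.05. In this list Cyp51 (−1.12) and Msmo1 (−1.01) had the largest differences, with adjusted p of 0.111 and 0.0764.

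Transporters moved both ways, with 2 of 35 higher and 5 lower (median −0.60). Slc34a2, the sodium-phosphate transporter of the alveolar membrane, rose from 5.66, 5.19 and 6.80 to 7.52, 9.69 and 11.42 (3.66, SE 0.78, adjusted p = 0.0197, 0.0917 without Lac10 replicate 2), and Slc39a8, a zinc and manganese importer, by 2.39 (SE 0.65, adjusted p = 0.0493, 0.3 without replicate 2). Slc5a5, the sodium-iodide symporter, was at 7.74, 8.52 and 9.36 in the virgins and at 5.95, 5.80 and 6.79 at Lac10, so it fell by 2.36 (SE 0.43, adjusted p = 0.0064, 0.0481 without replicate 2). Its difference in wild type was 0.72, and the difference between the genotypes, −3.08, did not pass (adjusted p = 0.0537). Aqp5, a water channel, fell from 9.63, 9.01 and 9.67 to 8.34, 6.61 and 6.60 (−2.26, adjusted p = 0.00445, 0.0358 without replicate 2). The chloride cotransporter Slc12a2 (−2.08) and the amino acid carriers Slc7a1 (−1.99) and Slc38a2 (adjusted p = 0.0429) passed with all arrays but not without replicate 2, where their adjusted p were 0.12, 0.215 and 0.3.

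No gene of the prolactin and Stat5 pathway and alveolar fate list passed in mutants, and 10 of 26 were at an unadjusted limma p under 0.05 (median −0.54, and −0.18 both without Lac10 replicate 2 and after housekeeping centring), and 7 rose in wild type. None of the 26 passed the test of the difference between the genotypes. In that test 14 were at an unadjusted limma p under 0.05, against 4688 of all 15234 genes. Elf5, the transcription factor of alveolar fate, was at 7.81, 6.55 and 8.47 in the virgins and at 8.60, 6.72 and 8.69 at Lac10 (0.39, adjusted p = 0.605). Stat5a was at 8.10, 8.05 and 7.52 and then at 7.62, 6.45 and 8.00 (−0.54, adjusted p = 0.313). Both overlapped between the groups, with replicate 2 the lowest Lac10 array. Elf3 (−2.07) and Ccnd1 (−1.56) had the largest differences of this list, with limma adjusted p of 0.0823 and 0.0608. Of 54 genes of the secretory pathway and the unfolded protein response 4 fell and none rose (median −0.66): the stress sensor Ern1 (−1.29), the chaperone cofactor Dnajb9 (−1.17), Herpud1 of protein disposal (−1.16) and the retrieval receptor Kdelr2 (−0.82). None of the 4 passed without Lac10 replicate 2, and 1 of 54 passed after housekeeping centring, Ern1 (adjusted p = 0.0395).

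Genes on the list of hormone-sensing luminal cells were lower at Lac10: 6 of 13 fell and none rose, and the median was −1.18 with all arrays, −1.20 without Lac10 replicate 2 and −0.82 after housekeeping centring. Pgr, the progesterone receptor, was at 8.28, 8.53 and 8.04 in the virgins and at 5.15, 5.21 and 4.80 at Lac10. The groups were tight and more than 2 log2 units apart, and the difference was −3.23 (SE 0.32, adjusted p = 7.22e-06; 7.28e-05 without replicate 2). Foxa1, which opens chromatin for the oestrogen receptor, fell from 10.04, 9.30 and 8.59 to 7.02, 5.35 and 5.11 (−3.48, SE 0.46, adjusted p = 0.000311; 0.00393 without replicate 2). Prom1, a surface marker of these cells, was at 7.56, 7.26 and 7.63 and then at 6.05, 5.06 and 5.13 (−2.07, SE 0.29, adjusted p = 0.000437; 0.00606 without replicate 2). Fgg, the fibrinogen gamma chain (−3.75), Tph1, tryptophan hydroxylase of serotonin synthesis (−2.78), and Aldh1a3, a retinal dehydrogenase (−2.34), fell as well, with adjusted p of 0.0135, 0.00931 and 0.00695, and of 0.0917, 0.0813 and 0.0504 without replicate 2. Whether these list members mark hormone-sensing cells in this tissue was not tested. Esr1, the oestrogen receptor, was at 8.83, 8.49 and 7.28 in the virgins and at 6.73, 6.61 and 7.71 at Lac10, overlapping through Lac10 replicate 3 (−1.18, SE 0.41, adjusted p = 0.0977). The fall of this list was also present in wild type, with 6 of 13 lower and a median of −0.96, and none of the 13 passed the test of the difference between the genotypes.

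**Figure D3:**
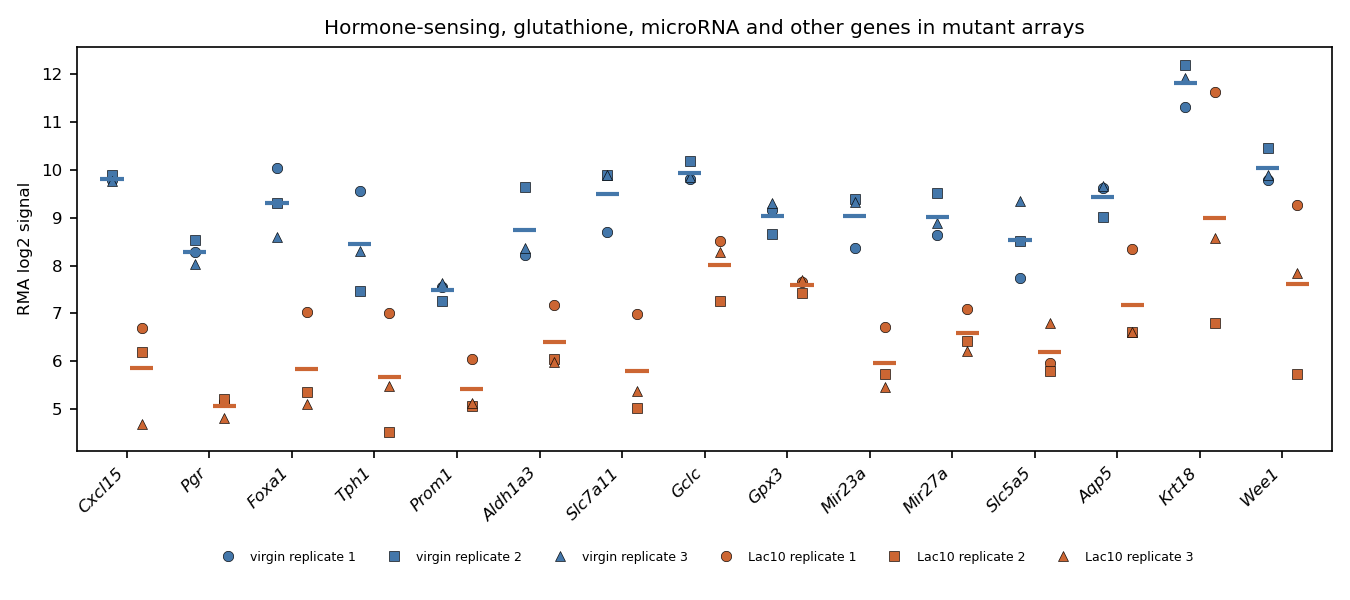
RMA log2 signal of 15 genes on the 3 virgin (blue) and 3 Lac10 (orange) mutant arrays; symbols mark replicates and bars group means. Pgr, Gpx3 and Mir27a are separated with narrow groups, whereas Lac10 replicate 1 (circles) of Krt18 and Wee1 lies at 11.64 and 9.26, inside or close to the virgin range.

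General luminal genes had the lowest list median (−1.42 over 25 genes), but 2 passed, Krt19 (−2.25, adjusted p = 0.0172) and Krt7 (−1.88, adjusted p = 0.0313), and neither passed without Lac10 replicate 2 (0.133 and 0.223). Taken array by array, the median distance of the 25 genes from the virgin mean was 0.00 on Lac10 replicate 1, −2.65 on replicate 2 and −1.48 on replicate 3. Krt18, a luminal keratin, was at 11.32, 12.19 and 11.93 in the virgins and at 11.64, 6.79 and 8.58 at Lac10 (−2.81, SE 0.81, adjusted p = 0.0617). Cldn4, a tight junction protein, was at 10.79, 11.93 and 11.43 and then at 11.39, 6.50 and 6.58 (−3.23, SE 1.01, adjusted p = 0.0745). Cdh1, E-cadherin, was at 10.64, 11.36 and 10.52 and then at 10.74, 6.63 and 8.25 (−2.30, SE 0.72, adjusted p = 0.0756). For each of these 3 genes Lac10 replicate 1 lay within the virgin range and the other 2 arrays far below it.

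Basal and myoepithelial genes had a median of 0.08 over 20 genes (0.44 after housekeeping centring and −0.21 without Lac10 replicate 3), and 2 genes of the contractile apparatus rose. Cnn1, calponin, went from 9.44, 8.89 and 9.42 to 10.21, 10.58 and 11.42 (1.48, SE 0.29, adjusted p = 0.0125; 0.0373 without Lac10 replicate 2 and 0.0935 without virgin replicate 2), and Acta2, smooth muscle actin, from 11.50, 11.11 and 11.38 to 11.79, 11.92 and 12.43 (0.72, SE 0.19, adjusted p = 0.0441, 0.122 without replicate 2 and 0.065 after housekeeping centring). Krt14, the basal keratin, differed by −0.18 (adjusted p = 0.724), and by 0.18 after housekeeping centring. None of 22 endothelial genes passed and 4 were at an unadjusted limma p under 0.05; 21 of the differences were positive, the median was 0.63, and the medians of the single Lac10 arrays were −0.65, 1.00 and 1.56. Kdr, the receptor of vascular endothelial growth factor, was at 7.63, 7.75 and 7.84 in the virgins and at 7.40, 10.60 and 11.02 at Lac10 (1.93, adjusted p = 0.133). Of 24 white adipocyte genes Lep, leptin, rose (1.84, SE 0.44, adjusted p = 0.0313, 0.188 without replicate 2) and Cdo1 fell. Adipoq, adiponectin, was at 4.68, 5.06 and 4.80 and then at 4.73, 5.66 and 7.61 (1.15, adjusted p = 0.121). The array medians of this list were −0.29, 0.32 and 1.62 for Lac10 replicates 1, 2 and 3, with replicate 3 the highest. The list's median of 0.50 became −0.10 without that array.

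Among genes of cysteine and glutathione metabolism 5 of 17 fell and none rose (median −0.38, and −0.02 after housekeeping centring, where 5 still passed). Slc7a11, the cystine importer, was at 8.70, 9.90 and 9.90 in the virgins and at 6.99, 5.02 and 5.38 at Lac10 (−3.70, SE 0.59, adjusted p = 0.00223; 0.0244 without Lac10 replicate 2). Gclc, the catalytic subunit of the rate-limiting enzyme of glutathione synthesis, fell from 9.81, 10.18 and 9.85 to 8.52, 7.25 and 8.28 (−1.93, SE 0.34, adjusted p = 0.00582; 0.0453 without replicate 2), and Gpx3, a secreted glutathione peroxidase, from 9.16, 8.67 and 9.31 to 7.65, 7.42 and 7.70 (−1.46, SE 0.21, adjusted p = 0.000789; 0.00709 without replicate 2). Gclm, the modifier subunit (−1.40, adjusted p = 0.0292), and Cdo1, cysteine dioxygenase (−2.26, adjusted p = 0.0277), did not pass without replicate 2, and for Cdo1 the groups overlapped. In wild type 4 of the 17 fell. In serine, glycine and one-carbon metabolism the directions were mixed: Gldc, the glycine decarboxylase, rose from 5.37, 5.29 and 5.46 to 6.77, 6.59 and 9.23 (2.15, SE 0.53, adjusted p = 0.035; 0.0402 without replicate 2, 0.0618 without Lac10 replicate 3 and 0.0874 to 0.147 without each virgin), while the mitochondrial folate enzymes Mthfd2 (−2.22, adjusted p = 0.00899), Shmt2 (−2.00, adjusted p = 0.035) and Mthfd1l (−1.07, adjusted p = 0.0256) fell, and none of these 3 passed without replicate 2.

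The probe sets of microRNA genes do not tell precursor from mature forms. Mir23a and Mir27a, which lie 79 bases apart in 1 cluster, both fell. Their main mature products are shown because the pair belongs to the 47 genes that passed in every leave-one-out fit; the sequences come from RefSeq (GRCm38.p6), at chr8:84208563-84208583 and chr8:84208727-84208747 on the plus strand, and capitals mark the seed, bases 2 to 8, by which a microRNA pairs with its targets.
mmu-miR-23a-3p: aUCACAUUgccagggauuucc
mmu-miR-27a-3p: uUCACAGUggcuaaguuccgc
The 2 seeds, UCACAUU and UCACAGU, are not the same. Mir23a was at 8.37, 9.40 and 9.34 in the virgins and at 6.71, 5.73 and 5.45 at Lac10 (−3.07, SE 0.45, adjusted p = 0.000881; 0.00865 without Lac10 replicate 2). Mir27a was at 8.64, 9.51 and 8.89 and then at 7.10, 6.43 and 6.21 (−2.43, SE 0.29, adjusted p = 0.000117; 0.00102 without replicate 2). The groups did not overlap for either gene, and as close neighbours they may not be independent measurements. In wild type the differences were −0.60 and −0.76 (adjusted p = 0.418 and 0.117), and the genotype difference did not pass (adjusted p = 0.0636 for each). Of the 157 microRNA genes tested 9 fell and 1, Mir328, rose (0.91), with a median of 0.03, and without replicate 2 the calls were these 2 neighbours. These microRNA genes other than Mir23a were singled out after their values were seen.

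The largest fall of all was Cxcl15, a secreted chemokine, at 9.79, 9.90 and 9.77 in the virgins and 6.70, 6.18 and 4.69 at Lac10 (−3.96, SE 0.37, adjusted p = 5.94e-06; 3.42e-05 without Lac10 replicate 2). The cytochrome P450 gene Cyp3a57 fell from 7.22, 6.15 and 6.97 to 3.78, 3.50 and 3.49 (−3.19, SE 0.23, adjusted p = 1.74e-07), the smallest adjusted p of the named genes. Both were far below the virgins on each Lac10 array. Fgb, the fibrinogen beta chain, fell with Fgg (−3.19, adjusted p = 0.00617; 0.0238 without replicate 2, 0.0542 without virgin replicate 2 and 0.0552 after housekeeping centring). Of the remaining largest falls, Il6, an inflammatory cytokine (−3.41), Mboat1, a lysophospholipid acyltransferase (−2.93), Hmox1, heme oxygenase (−2.78), Sgms2, a sphingomyelin synthase (−2.76), Atp6v1b1, a proton pump subunit (−2.74), and Hbegf, a ligand of the EGF receptor (−2.60), had adjusted p of 0.0156 to 0.0493 and did not pass without replicate 2 (0.116 to 0.334). Il6 was at 10.05, 9.85 and 9.59 in the virgins and 8.88, 4.86 and 5.52 at Lac10. Falls that kept their call under every leave-one-out fit and were singled out after their values were seen include Stc2, a secreted glycoprotein, from 8.62, 8.84 and 8.38 to 6.40, 6.17 and 6.37 (−2.30, SE 0.23, adjusted p = 7.22e-06), the growth factor Ptn (−2.35, adjusted p = 0.000349), the arginase Arg1 (−2.33, adjusted p = 0.000437) and the homeobox gene Msx2 (−1.90, adjusted p = 0.000178). From the 6 arrays alone Stc2 passed limma's test (adjusted p = 0.0358), and Ptn, Arg1 and Msx2 did not (0.148, 0.116 and 0.12).

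The rises outside milk synthesis were fewer. Pip, prolactin-induced protein, was near the bottom of the scale in the virgins (3.56, 3.45 and 3.56) and at 5.07, 8.51 and 7.56 at Lac10 (3.52, SE 0.81, adjusted p = 0.0273, 0.211 without Lac10 replicate 2). Ighg3, an immunoglobulin heavy chain constant region, was at 5.32, 5.72 and 4.74 and then at 7.77, 9.35 and 8.28 (3.21, SE 0.77, adjusted p = 0.0328, 0.215 without replicate 2 and 0.0483 from the 6 arrays alone), while none of the 10 plasma cell genes passed and 1 was at an unadjusted limma p under 0.05. Hephl1, a copper-dependent ferroxidase, rose by 2.30 (adjusted p = 0.0398; 0.0304 without replicate 2, 0.0689 without Lac10 replicate 3 and 0.089 to 0.147 without each virgin), and Pate6 by 2.09 (adjusted p = 0.0189, 0.103 without replicate 2). Among 25 interferon-stimulated genes 20 differences were positive (median 0.46) and Ifit3 rose from 7.21, 6.94 and 6.66 to 8.21, 7.78 and 8.57 (1.25, SE 0.27, adjusted p = 0.0224; 0.0254 without replicate 2, and 0.0935 and 0.0821 without virgin replicates 2 and 3). Neither the T and B lymphocyte list (22 genes) nor the macrophage and neutrophil list (24 genes) held a gene that passed, and 0 and 2 of them were at an unadjusted limma p under 0.05.

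The series title names DNA replication, mitosis and oestrogen, and none of the 55 DNA replication genes and none of the 52 mitosis genes passed between the mutant virgins and Lac10, where 5 and 3 were at an unadjusted limma p under 0.05. The mitosis median was 0.43 (0.06 without Lac10 replicate 1), with 48 positive differences, and the medians of the single Lac10 arrays were 1.11, 0.11 and 0.00. Mki67, the proliferation antigen, was at 7.02, 6.21 and 5.42 in the virgins and at 8.07, 5.85 and 7.12 at Lac10 (0.80, adjusted p = 0.346). Mcm2 of the replicative helicase was at 7.19, 6.44 and 6.21 and then at 7.22, 5.64 and 6.26 (−0.25, adjusted p = 0.757, and 0.12 after housekeeping centring), and the DNA replication list had a median of −0.04 (0.32 after that centring). Both genes overlapped between the groups. Of 37 genes of homologous recombination, Fanconi repair and its checkpoint 1 passed, Wee1, the kinase that holds cells before mitosis, at 9.80, 10.45 and 9.89 in the virgins and 9.26, 5.73 and 7.85 at Lac10 (−2.44, SE 0.62, adjusted p = 0.0398). Lac10 replicate 2 was by far the lowest, and without it the difference was −1.49 with an adjusted p of 0.291. Of 21 p53 target genes Sesn2 (−2.14, adjusted p = 0.0295), Cdkn1a, the p21 inhibitor of cell division (−1.60, adjusted p = 0.0229), and Mdm2, which degrades p53 (−1.59, adjusted p = 0.0473), fell, and none passed without replicate 2. Of 19 immediate early genes 5 fell (median −0.77): Myc (−1.88), Fosb (−1.32), Egr2 (−1.31), Klf4 (−1.20) and Egr3 (−1.01), and Egr2 alone passed without replicate 2 (adjusted p = 0.0162; 0.0532 after housekeeping centring). Cry1 was the 1 of 17 clock genes that passed (−1.20, adjusted p = 0.0288, 0.175 without replicate 2).

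In the remaining lists described here, 1 gene passed. Of 28 genes of involution and the acute phase none passed and 12 were at an unadjusted limma p under 0.05 (median −0.74, and −0.29 without Lac10 replicate 2), and of 29 cytosolic ribosomal protein genes none passed and 12 were (median −0.38, and −0.02 after housekeeping centring). None of 42 genes of oxidative phosphorylation passed, with 4 at an unadjusted limma p under 0.05 and a median of −0.13 (0.24 after housekeeping centring), nor did any of 32 fibroblast and matrix genes, with 5 and a median of −0.33 (0.03). Sprr1a, a cornified envelope protein, was the 1 keratinocyte gene that fell (−1.99, adjusted p = 0.03, 0.0621 without replicate 2). No skeletal muscle gene was at an unadjusted limma p under 0.05.

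**Figure D4:**
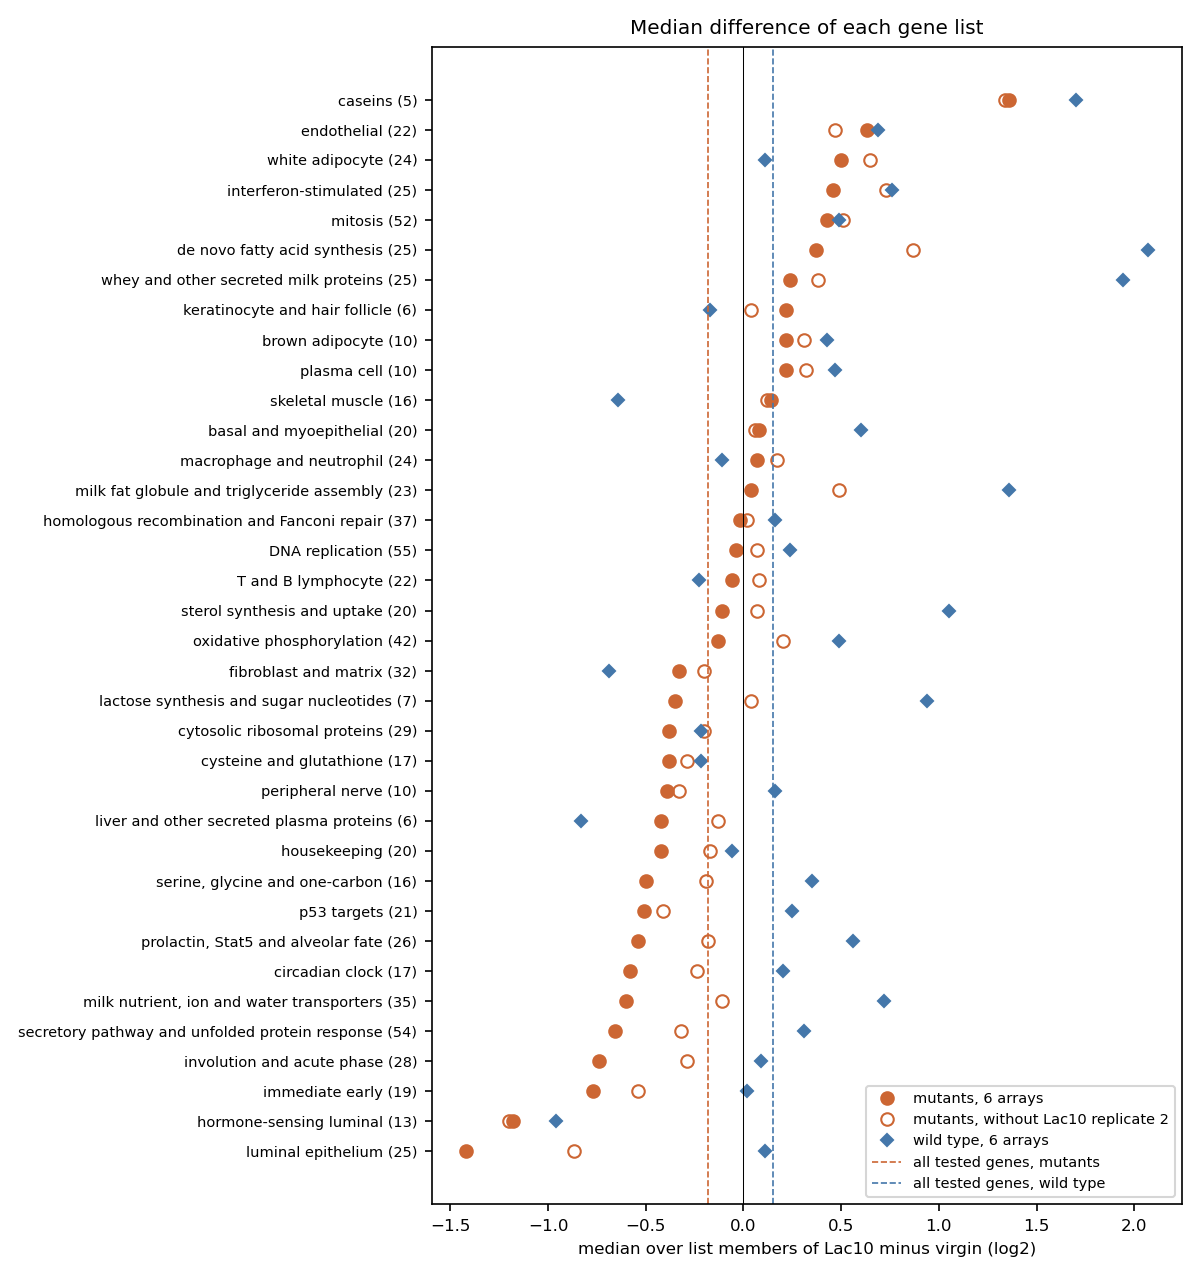
Median over the members of each gene list (number tested in brackets) of Lac10 minus virgin on the log2 scale, for the mutants with all 6 arrays (filled circles), without Lac10 replicate 2 (open circles) and for wild type (diamonds); dashed lines are the medians of all tested genes, −0.18 in mutants and 0.15 in wild type. The hormone-sensing list stands at −1.18 and −1.20 with and without the array, whereas the luminal list moves from −1.42 to −0.87.

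The intermediate stages were set beside these changes. Of the 43 rises 23 had their highest mutant stage mean at Lac10, 15 at dp18 and 5 at dp12, and of the 395 falls 289 had their lowest at Lac10, 77 at dp18 and 29 at dp12. These genes were chosen by their difference between virgin and Lac10, which favours an extreme at Lac10 and bars one at virgin. Lac10 replicate 2 was the lowest Lac10 array for 297 of the falls, and the same counts over all genes were not made. The counts are therefore a description. In the order virgin, dp12, dp18, Lac10, the stage means of Wap were 5.81 ± 1.16, 10.01 ± 1.03, 10.92 ± 0.30 and 10.80 ± 1.07 (SD, n = 3), so that it stood at its Lac10 level by dp12 within the spread. Csn1s2b was later, at 3.67 ± 0.19, 5.43 ± 0.60, 7.53 ± 2.46 and 9.98 ± 1.61. Olah was at 4.51 ± 0.34, 10.47 ± 0.57, 10.46 ± 0.33 and 9.55 ± 2.09, and Fasn at 9.19 ± 0.11, 11.68 ± 0.26, 11.37 ± 0.15 and 10.31 ± 1.72, both with wide Lac10 groups. Pgr was at 8.28 ± 0.24, 5.64 ± 0.19, 5.07 ± 0.52 and 5.05 ± 0.22 and Mir27a at 9.01 ± 0.44, 7.19 ± 0.17, 6.48 ± 0.33 and 6.58 ± 0.46, so most of these falls lay before dp12. The means of Wee1 differed in time, at 10.05 ± 0.35, 10.05 ± 0.17, 8.38 ± 1.21 and 7.61 ± 1.78, with wide dp18 and Lac10 groups. Mutant dp18 replicate 1 had a median correlation of 0.863 with the other 23 arrays, against 0.948 and 0.964 for dp18 replicates 2 and 3. The part of that array in the dp18 means was not tested.

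Set beside the same span in wild type, rises outnumbered falls in wild type and falls outnumbered rises in mutants. In wild type 1103 genes passed (7.24%), 915 (6.01%) higher and 188 (1.23%) lower. After housekeeping centring 1143 did (7.5%), 583 higher and 560 lower. Of the 43 mutant rises 22 also rose in wild type (51.2% of the mutant and 2.4% of the wild-type list), and of the 395 mutant falls 50 also fell (12.7% and 26.6%). Mir1933 and, named after their values were seen, Ano1, Rasef and Mir1192 fell in mutants and rose in wild type. The median wild-type difference was 1.07 for the mutant rises, against 1.50 in mutants, and −0.32 for the mutant falls, against −1.37. These genes were chosen by their mutant difference, so the 2 sizes are a description. The test of the difference between the genotypes called 3 genes (0.0197%), Mfsd2a, Tfrc and Mir1933, while 4688 genes had an unadjusted p under 0.05, and its median over all genes was −0.44, or 0.29 after housekeeping centring, after which no gene passed and 3609 were at an unadjusted limma p under 0.05. Mfsd2a, a lipid transporter, was at 8.33, 7.77 and 8.26 in mutant virgins and 7.79, 6.50 and 8.12 at Lac10, and in wild type at 7.29, 7.04 and 7.51 and then 9.35, 10.70 and 10.89 (difference of the differences −3.69, SE 0.61, adjusted p = 0.0451). Tfrc, the transferrin receptor that takes up iron, had differences of −0.57 in mutants and 2.57 in wild type (−3.14, SE 0.53, adjusted p = 0.0451), and Mir1933 of −1.10 and 1.61 (−2.71, SE 0.41, adjusted p = 0.0245). None of the 3 passed without mutant Lac10 replicate 2, when no gene did and 2454 were at an unadjusted limma p under 0.05. Acot6 (−3.35, adjusted p = 0.0537) and Fos (−1.63, adjusted p = 0.0512) came next.

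**Figure D5:**
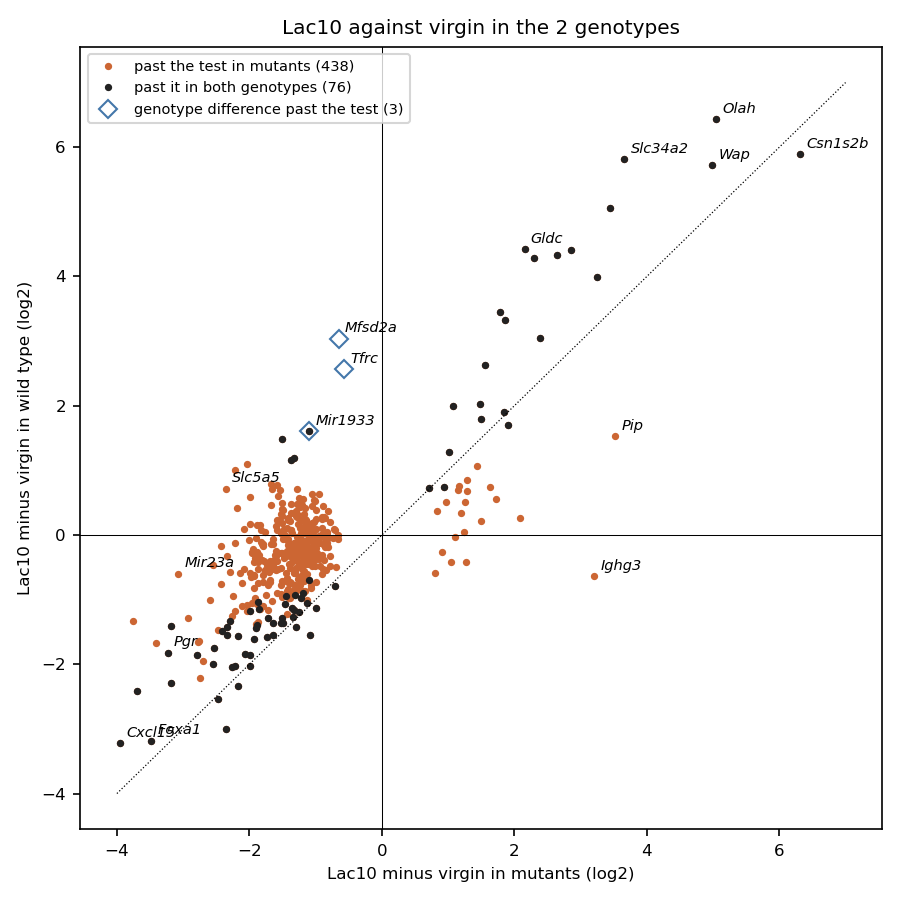
Lac10 minus virgin in mutants (horizontal) against the same in wild type (vertical), both log2, for the 438 genes that passed in mutants (orange), the 76 that passed in both genotypes (black) and the 3 genes whose difference between genotypes passed (open diamonds); the dotted line marks equal differences. The milk genes lie high in both, and the 395 mutant falls have a median of −0.32 in wild type.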

How the data were processed

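The authors deposited a log2 table of 41345 probe sets on 24 arrays, made with RMA per the submitters' processing notes (version not given in the sources used here), with biotin-labelled RNA per the labels' protocols. Values ran from 1.98 to 13.51. Probe sets with 1 gene symbol (23521; 1814 had several, 16010 none) were reduced to the brightest of each of 22180 genes, and 15234 genes above the array median on at least 3 arrays were tested. limma (3.58.1, R 4.3.3) was fitted to all 24 arrays with 1 mean for each of 8 groups, so that all groups share the spread (16 residual degrees of freedom, 3 arrays a group). P-values are two-sided with Benjamini-Hochberg adjustment over all 15234 genes, threshold 0.05. The median SE was 0.30, and the number of arrays limits precision. The fit was tested on simulated data with independent noise and 1 spread per gene on every array. That setting cannot show how the fit behaves where arrays differ in spread, as these do. The text names the 15 largest rises and 15 largest falls without overlap, up to 5 passed members of each of 36 lists, a fixed list and the 5 smallest p of the genotype difference. For lists without a passed member the 2 largest values were picked, and only some of these are given in the text. Others are marked or come from a named list. The members and lists were chosen with earlier results of these data known. Alternatives changed the filter, probe set choice, centring, arrays fitted, variance model, array weights, body weight, replicate block and single arrays.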

Additional observations from a re-analysis of the deposited data

Results flagged for a closer look

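For 3 genes the Lac10 against virgin difference was not the same in the genotypes by the test of that difference. Mutants minus wild type was −3.69 for Mfsd2a, −3.14 for Tfrc and −2.71 for Mir1933, and in wild type the 3 Lac10 arrays lay above the 3 virgins for each. None passed without mutant Lac10 replicate 2. Groups of 3 arrays were not tested for outliers.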

How the results depend on the processing

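Mutant calls (438) ranged from 64 to 1794 when 1 array of the comparison was left out. They were 151 after array median centring, 135 after housekeeping centring, 9 from the compared groups alone, 45 from 1 genotype alone, 1617 with array weights (31.4% higher, against 9.82%) and 284 with the replicate block, which used the wild-type numbers because mutants carry none in their labels. Housekeeping centring moved the share of rises to 35.6%. Wild-type calls (1103) ranged from 322 to 1033 leaving out 1 array, and were 735 after array median centring, 2288 from the compared groups alone, 8232 with array weights, 2709 with body weight as covariate and 4238 without the 3 arrays of lowest resemblance, an alternative chosen after seeing the data. After housekeeping centring 51% of the 1143 wild-type calls were higher. Calls of the genotype difference (3) ranged from 0 to 3825 leaving out 1 array (657 and 3825 without mutant Lac10 replicates 1 and 3, 192 without wild type Lac10 replicate 1). They were 1 without the filter, 5 for each probe set on its own, 0 after either centring and from the compared groups alone, 16 with a variance trend, 6343 with array weights, 4563 with body weight, 1 with the replicate block and 2012 without the 3 arrays. The cause of these moves was not tested. Of the 66 named genes that passed, 45 did not without mutant Lac10 replicate 2, 51 without virgin replicate 2, 25 after housekeeping centring and 0 without Lac10 replicate 1. No named gene changed direction while passing.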

Other observations

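Some gene families, grouped by symbol after the calls were seen, held several falls. Of 69 heat shock proteins and co-chaperones 11 fell and none rose (median −0.60, and −0.34 without Lac10 replicate 2, when 1 passed), among them Hsph1, from 10.53, 9.51 and 9.61 to 9.24, 6.49 and 7.34 (−2.19, adjusted p = 0.033), and Hsp90aa1 (−1.51, adjusted p = 0.0184). In wild type 3 of the 69 rose and none fell. Of 37 nucleolar genes of ribosome assembly 8 fell (median −0.92, and −0.57 without that array, when none passed in limma and 14 were at an unadjusted p under 0.05), among them Noc3l (−2.08, adjusted p = 0.0234) and Nop58 (−1.89, adjusted p = 0.0267). Of 30 aminoacyl-tRNA synthetases 3 fell, Nars, Tars and Yars (median −0.57, −0.20 after housekeeping centring and 0.46 in wild type). Without Lac10 replicate 2 the median was −0.32, none passed in limma and 5 were at an unadjusted p under 0.05. For the fit without that array, the same count over all genes was not made. Whether the 14 nucleolar genes and these 5 are many therefore cannot be said.

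Small nucleolar RNA genes had a positive median. Of 68 tested 4 rose and 1 fell, with a median of 0.38 against −0.18 for all genes. Snord87 was at 7.74, 7.86 and 7.77 in the virgins and at 8.84, 9.79 and 9.24 at Lac10 (1.50, adjusted p = 0.0156), and Snord104 rose by 1.20 (adjusted p = 0.0229), Snord47 by 1.15 (adjusted p = 0.0352) and Snora21 by 1.04 (adjusted p = 0.0461). Snord16a fell by 2.33 on the log2 scale (adjusted p = 0.0156). None of the 68 passed limma's test without Lac10 replicate 2, and 30 were at an unadjusted p under 0.05. The same count over all genes was not made for that fit, so whether 30 is many cannot be said.

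The falls were deepest on 1 array: the median distance of the 395 genes from the virgin mean was −0.91, −1.91 and −1.26 on Lac10 replicates 1, 2 and 3, and replicate 2 was the lowest Lac10 array for 297 of them. The median distance of the 43 rises was 1.00, 1.48 and 2.09.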
